A study of Rattus norvegicus with 6 samples.

Results

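The proteasome genes of rat aortic smooth muscle cells (RASMCs) were followed after a challenge with 2 components of extracellular traps. The genes were taken by symbol, as all entries of the count table that begin with Psma to Psmg and a number, which gave 49 of 22574 gene symbols. RASMCs are primary cells from the aortic media of Sprague-Dawley rats, described by the study as male and 8 weeks old, with no transgene or gene deletion named. In 3 libraries, here the H3CIT+dsDNA group, the cells had received 0.03 μM of citrullinated histone H3 (H3CIT) and 300 ng/ml of double-stranded DNA (dsDNA), and in 3 control libraries they had received bovine serum albumin. The study describes its in vitro replicates as wells plated from the cells of 1 rat, so p-values measure the spread between wells and library preparations and not between animals. The comparison asks whether these trap components alter the transcripts of the protein degradation machinery, and in particular those of its interferon-induced form.

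Of the 49 genes, 8 encode the alpha ring and 4 the structural part of the beta ring of the barrel-shaped core particle. A further 3 encode the constitutive catalytic beta subunits, 3 the interferon-induced catalytic subunits and 1 (Psmb11) the catalytic subunit of the thymus. The regulatory cap is covered by 6 ATPase genes of its base and 11 non-ATPase genes. The remainder are 7 assembly chaperones, 5 activators or inhibitors and Psmc3ip. That last gene matches the symbol rule but encodes a partner of the meiotic recombination machinery, so that 48 of the 49 belong to the proteasome.

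The proteasome degrades proteins that carry ubiquitin chains. The cap binds and unfolds the substrate with its ring of ATPases, and the core cuts it with the catalytic subunits encoded by Psmb5 (chymotrypsin-like activity), Psmb6 (caspase-like) and Psmb7 (trypsin-like). Interferon-gamma induces Psmb8, Psmb9 and Psmb10, whose products take the places of the Psmb5, Psmb6 and Psmb7 products in newly made particles. The resulting immunoproteasome favours peptides that fit MHC class I molecules, and in most tissues outside the immune system it is scarce until an inflammatory signal arrives. Psme1 and Psme2 encode the activator ring that interferon also induces.

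The 4 promoters below belong to the interferon-induced catalytic subunits and to Psme4, the member with the lowest p-value, the latter chosen after its values were seen. Each runs from 100 bases before to 20 bases after the annotated transcription start, 5′ to 3′ on the strand of the gene, and comes from RefSeq on the rat assembly GRCr8, not the build used for counting. Capitals mark the core of the interferon-stimulated response element (ISRE, searched as GAAANNGAA on both strands), to which interferon regulatory factors bind.
Psmb8 promoter, chr20:4657012-4657131, minus strand: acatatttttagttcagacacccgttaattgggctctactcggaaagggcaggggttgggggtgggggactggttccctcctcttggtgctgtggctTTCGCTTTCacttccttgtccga
Psmb9 promoter, chr20:4668900-4669019, plus strand: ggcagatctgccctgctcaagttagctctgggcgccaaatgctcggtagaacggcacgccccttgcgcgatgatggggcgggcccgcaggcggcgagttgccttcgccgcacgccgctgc
Psmb10 promoter, chr19:50743273-50743392, minus strand: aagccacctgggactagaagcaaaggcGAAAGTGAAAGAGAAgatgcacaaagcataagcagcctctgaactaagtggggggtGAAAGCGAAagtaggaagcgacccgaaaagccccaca
Psme4 promoter, chr14:108706543-108706662, plus strand: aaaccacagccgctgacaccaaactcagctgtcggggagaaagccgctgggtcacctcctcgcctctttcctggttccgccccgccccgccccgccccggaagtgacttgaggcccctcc

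In the Psmb10 promoter the core occurred 3 times, with 2 of the occurrences overlapping, and in the Psmb8 promoter 1 time across the start. The whole 300-base windows of Psmb9 and Psme4 did not contain these letters. Of the 49 genes, 44 had a promoter in the RefSeq table, and 9 of them (20.5%) held the ISRE core, against 9.71% of all 33469 promoters. For each motif the 33469 are all promoters of that table, with no limit to genes counted or tested here. Besides Psmb8 and Psmb10 these were Psma4, Psmb2, Psmb3, Psmd7, Psmd11, Psme2 and Psmg4. The interferon-gamma activated site (GAS), TTCNNNGAA, occurred in 4 of 44 (9.09%, against 8.87% of all promoters), Psmb8 among them. The antioxidant response element, TGACNNNGC, to which NRF1 and NRF2 bind, occurred in 8 (18.2%, against 12.1%) and the CCAAT box, CCAAT, in 22 (50%, against 37.5%). A match of letters is a description of the sequence and no evidence of binding.

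Library totals lay between 17573905 and 18742395 counts, of which the 49 genes took 0.698% to 0.733%. The smooth muscle identity of the cells was visible in Acta2, Myh11, Tagln, Cnn1 and Des, and the 8 smooth muscle markers summed to 5746 to 6303 CPM (counts scaled to a common depth after TMM) in the H3CIT+dsDNA group and 8484 to 9225 CPM in controls. The 12 leukocyte and macrophage markers, from cells that carry the immunoproteasome constitutively, summed to 76.0 to 78.2 CPM and 77.1 to 80.8 CPM, mostly from Cd14 and Csf1r. Ptprc, the pan-leukocyte marker, had 1 count in all 6 libraries together and Itgam had 2. The 8 endothelial markers summed to 8.49 to 9.02 CPM and 9.92 to 10.7 CPM, with Kdr and Emcn at 1 count each over all libraries, and the 4 fibroblast markers to 2.37 to 3.92 CPM and 2.53 to 4.59 CPM. In bulk RNA, fewer cells of a type and less RNA per cell cannot be told apart.

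The proteasome genes hardly differed between the groups. Of the 49, 47 had enough counts to be tested with edgeR's quasi-likelihood test, and 1 of them (2.13%) had an adjusted p-value under 0.05, here termed called, where 2.2% of all 12591 genes tested were called. The called gene was Psme4, which was higher in the H3CIT+dsDNA group, a direction in which 1.94% of all genes were called. None of the 47 was called lower by edgeR, DESeq2 or limma-voom. At an unadjusted p-value under 0.05, 10, 7 and 10 of them were lower, in this order. Of all genes tested 5.3%, 3.58% and 5.21% were lower at that threshold. Log2 fold changes, given throughout as H3CIT+dsDNA over control, ran from -0.20 (Psmc3ip) to 0.25 (Psme4). The 95% confidence intervals of all 47 genes lay within a 1.5-fold change in either direction, the lowest bound being 0.752-fold (Psmd10) and the highest 1.29-fold (Psme4), with no allowance for the number of intervals. The standard errors of the log2 fold changes were 0.03 to 0.17, and between control libraries the members had coefficients of variation with a median of 2.69% and a maximum of 15.4% (Psmb9).

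**Figure D1:**
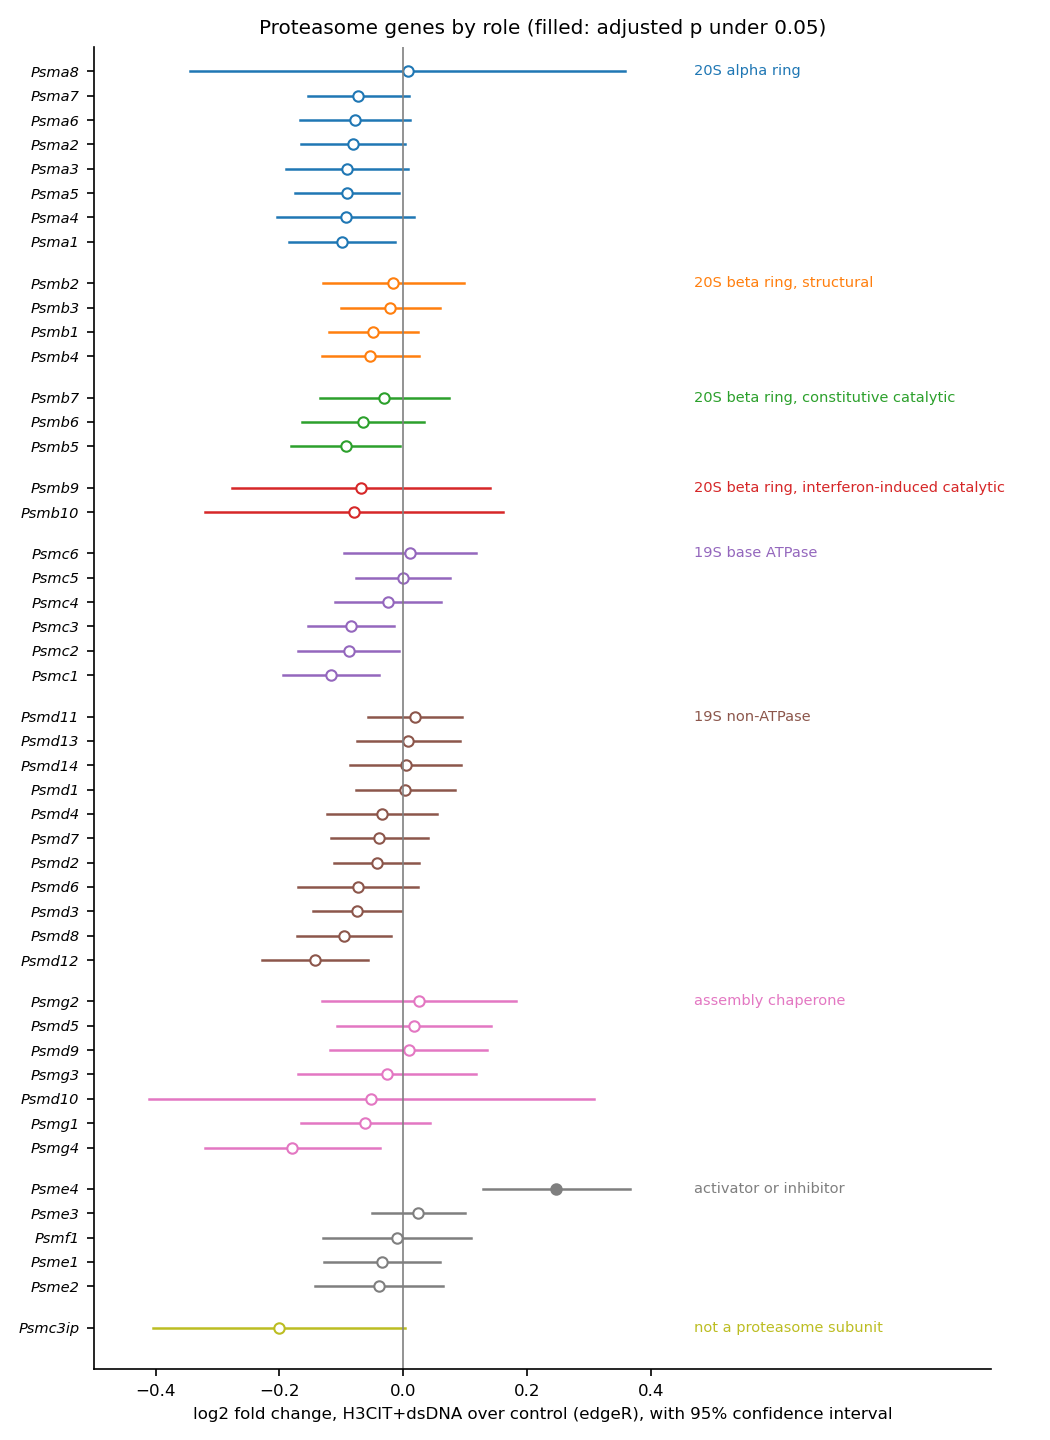
Log2 fold change of each of the 47 members tested (points) with its 95% confidence interval (lines) from edgeR, H3CIT+dsDNA over control, 3 libraries each. Genes are grouped and coloured by role, and Psmc3ip among them is no proteasome gene. Psme4, at 0.25, is the filled point and the only gene with an adjusted p-value under 0.05, while most other points lie just left of 0.

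Of the interferon-induced catalytic subunits none was called. Psmb9 stood at 22.2, 21.2 and 22.3 CPM in the H3CIT+dsDNA libraries and at 27.0, 20.4 and 21.6 CPM in controls. The groups overlapped, and control replicate 1 was the highest of the 6 libraries. The log2 fold change of Psmb9 was -0.07 (edgeR adjusted p = 0.810, SE 0.10), and its 95% confidence interval ran from 0.826-fold to 1.10-fold. Psmb10, with the 3 ISRE cores shown above, stood at 12.2, 14.4 and 16.9 CPM against 16.3, 14.1 and 15.6 CPM. Its highest and its lowest library were both in the H3CIT+dsDNA group. The log2 fold change of Psmb10 was -0.08 (edgeR adjusted p = 0.807, SE 0.11), with an interval from 0.801-fold to 1.12-fold.

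Psmb8 was almost without counts. It had 1, 2 and 2 counts in the H3CIT+dsDNA libraries and 2, 1 and 0 in controls, below the filter for testing and below the 3 counts, or 0.162 to 0.170 CPM, that a count of 0 still allows. No fold change is given, since every library of both groups lay under that floor, and a change in Psmb8 was not detectable from these counts. Whether the annotation used for counting assigned its reads elsewhere was not tested. Its neighbours were well covered: on GRCr8 the genes follow each other as Tap2, Psmb8, Tap1 and Psmb9, and Tap1 had between 1369 and 1607 counts and Psmb9 between 374 and 482. Psmb11, the subunit of the thymus, had 0 counts in each H3CIT+dsDNA library and 2, 1 and 1 in controls.

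None of the 3 constitutive catalytic subunits was called, and all 3 had log2 fold changes below 0, as had Psmb9 and Psmb10. Psmb5 had 127.8, 130.4 and 122.6 CPM in the H3CIT+dsDNA group and 135.0, 139.4 and 131.7 CPM in controls. All 3 H3CIT+dsDNA libraries lay below all 3 controls, a separation downward that 8.43% of all genes tested showed, and the log2 fold change was -0.09 (edgeR adjusted p = 0.330, SE 0.04). Psmb6 had 124.9, 136.4 and 124.5 CPM against 129.8, 136.5 and 137.1 CPM. Its groups overlapped, and its log2 fold change was -0.06 (edgeR adjusted p = 0.570, SE 0.05). Psmb7, with 164.6, 179.5 and 184.7 CPM against 171.2, 182.5 and 186.4 CPM, overlapped throughout, at a log2 fold change of -0.03 (edgeR adjusted p = 0.833, SE 0.05).

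**Figure D2:**
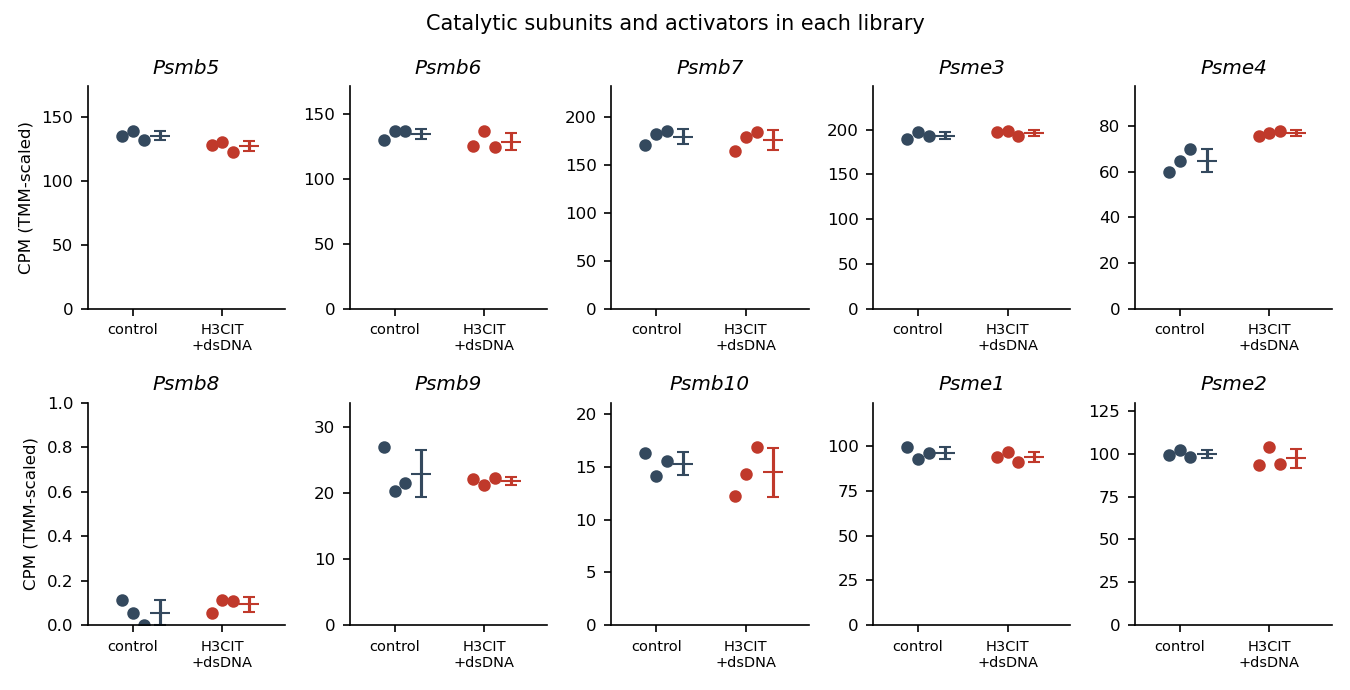
CPM after TMM scaling of the 3 constitutive and 3 interferon-induced catalytic subunits and of 4 activators in each of the 6 libraries (points), with the mean and SD of each group of 3 beside them; each panel has its own axis from 0. Psme4 is the only panel in which every H3CIT+dsDNA library lies above every control, and Psmb8 stays near 0 in all 6 libraries, on at most 2 counts.

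Each interferon-induced subunit was also set against the constitutive subunit whose place it takes, as a ratio of counts within a library that does not depend on scaling. The ratios are of transcripts, not of assembled particles, and without transcript lengths they are compared only between libraries. For every 100 counts of Psmb6 there were 17.8, 15.6 and 17.9 counts of Psmb9 in the H3CIT+dsDNA libraries and 20.8, 14.9 and 15.7 in controls. The log2 ratio Psmb9/Psmb6 was -2.55 ± 0.11 (SD, n = 3) and -2.56 ± 0.26 (SD, n = 3), a difference of 0.01 (two-sided exact permutation p = 1). For every 100 counts of Psmb7 there were 7.44, 8.0 and 9.15 counts of Psmb10 against 9.52, 7.74 and 8.36. The log2 ratio Psmb10/Psmb7 was -3.61 ± 0.15 (SD, n = 3) against -3.55 ± 0.15 (SD, n = 3), a difference of -0.06 (two-sided exact permutation p = 0.6). The log2 ratio Psmb8/Psmb5 differed by 0.89 (two-sided exact permutation p = 0.2), but rests on 5 counts of Psmb8 against 3. In all 3 log2 ratios 0.5 was added to each count. Adjusted over the 3 ratios the exact p-values were 1, 0.9 and 0.6 in this order, and with 3 libraries against 3 none can fall below 0.1.

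**Figure D3:**
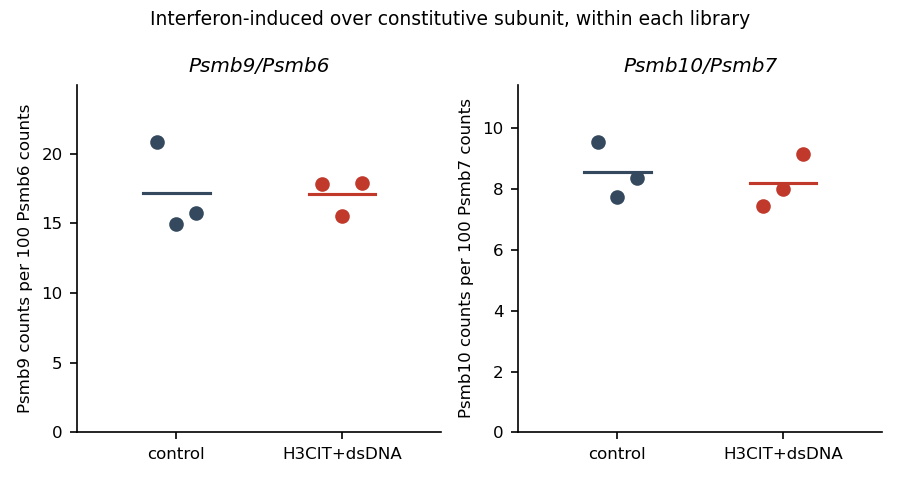
Counts of Psmb9 per 100 counts of Psmb6 (left) and of Psmb10 per 100 counts of Psmb7 (right) in each library (points), with the group mean as a line; axes start at 0. The groups overlap in both panels, with the highest library a control in each (20.8 for Psmb9 and 9.52 for Psmb10).

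Among the activators, which dock on the ends of the core, Psme4 stood apart. Psme4, which encodes the large single-chain activator PA200, known for the degradation of acetylated histones, had 75.9, 77.3 and 78.2 CPM in the H3CIT+dsDNA libraries. In controls it had 59.8, 64.7 and 70.2 CPM, so that every H3CIT+dsDNA library exceeded every control, as was the case for 10.7% of all genes tested. The means were 77.1 ± 1.15 CPM (SD, n = 3) and 64.9 ± 5.18 CPM (SD, n = 3). Psme4 rose by 0.25 on the log2 scale (edgeR adjusted p = 0.0329, SE 0.05), a 1.19-fold change with a 95% confidence interval from 1.09-fold to 1.29-fold. The call was narrow. It was lost with upper-quartile scaling (adjusted p = 0.0599) and whenever any library other than control replicate 3 was left out (adjusted p between 0.0871 and 0.141), while the log2 fold change stayed between 0.19 and 0.31.

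The interferon-inducible activator genes were not called. Psme1 had 94.3, 96.9 and 91.1 CPM against 99.7, 93.1 and 96.2 CPM in controls, a log2 fold change of -0.03 (edgeR adjusted p = 0.782, SE 0.04). Psme2 had 93.75, 104.1 and 94.2 CPM against 99.2, 102.4 and 98.4 CPM, a log2 fold change of -0.04 (edgeR adjusted p = 0.774, SE 0.05). In both genes the groups overlapped, and the 95% confidence intervals ended at 1.04-fold for Psme1 and 1.05-fold for Psme2. Psme3, which encodes the nuclear relative of these activators and is not induced by interferon, had 198.1, 199.2 and 192.7 CPM against 189.6, 197.6 and 193.0 CPM (log2 fold change 0.02, edgeR adjusted p = 0.811, SE 0.03). Psmf1, the gene of the inhibitor PI31, was at a log2 fold change of -0.01 (edgeR adjusted p = 0.963).

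The alpha ring forms the gate of the core and carries no catalytic site. Of its 8 genes 7 had log2 fold changes below 0, within a band from -0.10 (Psma1) to -0.07 (Psma7), and none was called. Psma1 had 152.3, 143.8 and 143.1 CPM in the H3CIT+dsDNA group against 159.7, 158.1 and 152.7 CPM in controls, a narrow separation of the groups (edgeR adjusted p = 0.278). Psma5 stood at 113.2, 113.3 and 113.0 CPM against 118.3, 124.4 and 118.7 CPM (log2 fold change -0.09, edgeR adjusted p = 0.319). With Psma2 (-0.08), 3 of the 8 genes (37.5%) lay below every control, against 8.43% of all genes tested. The eighth gene, Psma8, which encodes an alpha subunit known from the testis, had 67 to 81 counts per library and a log2 fold change of 0.01 with an interval from 0.788-fold to 1.28-fold. The 4 structural beta genes lay between -0.05 (Psmb4) and -0.02 (Psmb2), with no separation of the groups in any of them.

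In the cap, the 6 ATPase genes ranged from -0.12 (Psmc1) to 0.01 (Psmc6). Psmc1 had 269.2, 267.8 and 257.5 CPM against 279.6, 295.6 and 285.9 CPM in controls. Its groups did not overlap, and the log2 fold change of -0.12 (standard error 0.04) had an adjusted p-value of 0.143 from edgeR. Psmc2 (log2 fold change -0.09) and Psmc3 (-0.08) also lay below every control, whereas Psmc4 (-0.03), Psmc5 (0.00) and Psmc6 overlapped with them. The 11 non-ATPase genes ranged from -0.14 (Psmd12) to 0.02 (Psmd11). Of them 4 lay below every control, namely Psmd3, Psmd6, Psmd8 and Psmd12. Those are 36.4% of the 11, beside 50% of the 6 ATPase genes and 8.43% of all genes tested. Psmd12, which encodes a lid subunit, came closest of all members to a lower call, with 121.8, 121.2 and 121.6 CPM against 128.8, 138.1 and 135.7 CPM. Its log2 fold change was -0.14 (edgeR adjusted p = 0.0989, SE 0.04), and the adjusted p lay between 0.0597 and 0.326 over all alternatives. Psmd14, the gene of the deubiquitinase that removes the ubiquitin chain, was at 0.00 (adjusted p = 0.983), and Psmd4, the gene of a ubiquitin receptor, at -0.03 (edgeR adjusted p = 0.767).

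Assembly chaperones build the ring and the base and leave the finished particle. The 7 genes ranged from -0.18 (Psmg4) to 0.03 (Psmg2), and none was called. Psmg4 had 30.1, 30.1 and 26.9 CPM against 33.6, 33.2 and 31.8 CPM in controls, below every control, with a standard error of 0.07 and an adjusted p-value of 0.232 from edgeR. Psmd10, the gene of gankyrin, was the least precise member, at 111 to 185 counts per library and with an interval from 0.752-fold to 1.24-fold. Psmc3ip, which is no proteasome gene, had the lowest log2 fold change, -0.20 (edgeR adjusted p = 0.370, SE 0.09), on 179 to 226 counts per library.

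Seen together, the members were shifted slightly downward. Of the 47 log2 fold changes 36 (76.6%) were below 0, with a median of -0.05, where 50.6% of all genes tested were below 0 and their median was 0.00. In 13 of the 47 (27.7%) all H3CIT+dsDNA libraries lay below all controls, against 8.43% of all genes tested, and in 1 gene, Psme4, above them. Psmc3ip, which is no proteasome gene, is counted among the 36 and the 13. At an unadjusted p-value under 0.05, 10 of the 47 (21.3%) were lower, against 5.3% of all genes tested. These were Psmd12, Psmc1, Psmg4, Psmd8, Psmc3, Psma1, Psma5, Psmc2, Psmb5 and Psmd3, a list read from the values. The summed level of all 49 genes was 6926, 7153 and 7105 CPM in the H3CIT+dsDNA libraries and 7257, 7403 and 7258 CPM in controls, 3.35% lower in the mean. As a share of raw counts, with no TMM scaling, the mean was 2.05% lower. The genes share the same 6 libraries, and their number is no measure of replication.

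The members' own values moved with scaling and with single libraries, whereas their distance from all genes moved with single libraries only. With library size alone 33 of the 47 genes were below 0, the median was -0.03 and 4 genes were lower at an unadjusted p-value under 0.05, while 2.95% of all genes then were. With upper-quartile scaling 43 were below 0, the median was -0.07 and 15 were lower at that threshold, against 7.81% of all genes. Without H3CIT+dsDNA replicate 1, the library with the lowest member sum, the median was -0.03 and 5 genes were lower at the unadjusted threshold, against 3.38% of all genes. Without control replicate 2, which had the highest sum, 3 genes were, at a median of -0.05, against 3.50% of all genes. The difference between the members' median and that of all genes was -0.05 under every scaling. On leaving out single libraries it ran from -0.03 (without H3CIT+dsDNA replicate 1) to -0.06 (without H3CIT+dsDNA replicate 2).

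**Figure D4:**
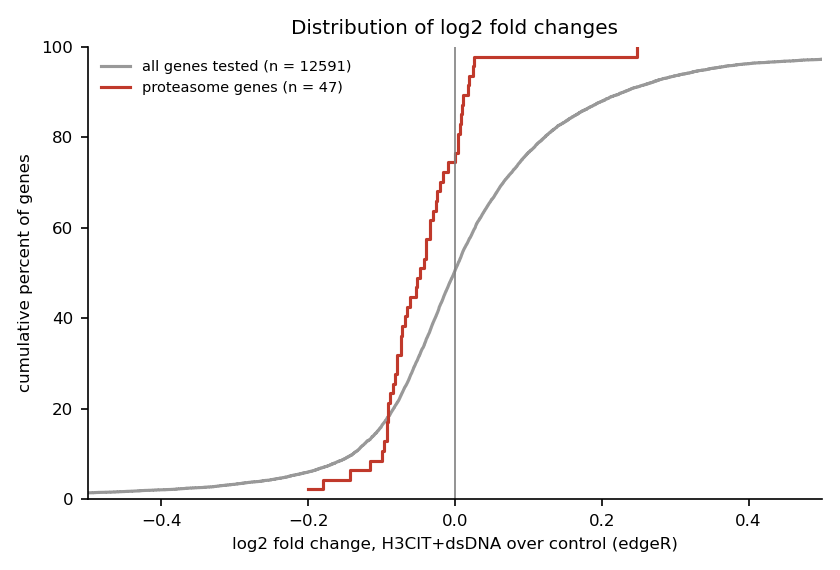
Cumulative percentage of genes (vertical axis) at or below a given log2 fold change from edgeR (horizontal axis, cut at -0.5 and 0.5). Curves are for all 12591 genes tested and for the 47 members tested, Psmc3ip included. The curve of the members reaches 76.6% at 0, where that of all genes reaches 50.6%.

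The genes that supply, feed or control the proteasome were taken as lists of their own. Of 16 accessory and shuttle proteins tested none was called, and the median log2 fold change was -0.01. Adrm1, the gene of a ubiquitin receptor of the cap, had 159.2, 160.9 and 159.3 CPM against 181.2, 172.3 and 167.3 CPM in controls, below every control (log2 fold change -0.12, edgeR adjusted p = 0.169). Ubqln4 (-0.15) also lay below every control, while Zfand5 (0.13) and Ube3c (0.06) lay above. These were 2 genes in each direction, where 8.43% of all genes tested lay below every control and 10.7% above. Pomp, the maturation factor of the core, varied widely between libraries, with 47, 218 and 70 counts against 89, 51 and 77 and an interval from 0.805-fold to 3.10-fold. The 13 genes for transcription and processing of proteasome genes held no call either. Nfe2l1, which encodes NRF1, the factor that raises proteasome genes when the proteasome is impaired, was at 911.9, 896.9 and 922.6 CPM against 899.2, 908.0 and 900.7 CPM, a log2 fold change of 0.01 (edgeR adjusted p = 0.893). Nfe2l2, the gene of NRF2, was at 0.04 (adjusted p = 0.691). Of the 6 ubiquitin and E1 enzyme genes none was called, with Ubb at -0.09 (edgeR adjusted p = 0.373). Among them Uba6 lay above every control (log2 fold change 0.25, edgeR adjusted p = 0.107) and Uba1 below every control (-0.03, edgeR adjusted p = 0.722).

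The interferon route held 2 calls among 13 genes tested (15.4%), both higher, where 1.94% of all genes tested were called higher. In 3 of the 13, Jak2, Irf9 and Ifnar1, every H3CIT+dsDNA library lay above every control, against 10.7% of all genes tested. Ifnar1, the gene of a type I interferon receptor chain, was not called (log2 fold change 0.10, edgeR adjusted p = 0.323). Jak2, a kinase of the interferon-gamma receptor, had 47.4, 48.4 and 47.5 CPM against 13.1, 17.8 and 13.8 CPM and rose by 1.68 on the log2 scale (edgeR adjusted p = 6.85e-08, SE 0.09). Irf9, the DNA-binding part of the complex that type I interferon activates, had 23.7, 18.95 and 19.6 CPM against 9.24, 7.87 and 9.48 CPM and rose by 1.23 (edgeR adjusted p = 9.06e-06, SE 0.11). On GRCr8 Irf9 is separated from Psme2 by 1 gene, Rnf31. Irf1, the interferon-induced factor that acts on the promoters of Psmb8, Psmb9 and Psmb10, was at 36.1, 35.9 and 36.2 CPM against 36.8, 33.9 and 37.0 CPM (log2 fold change 0.01, adjusted p = 0.975). Nlrc5, the transactivator of MHC class I genes, never exceeded 8 counts and was not tested.

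MHC class I genes, which act downstream of the immunoproteasome, held no call among 17 genes tested, and their median log2 fold change was -0.02. In 4 of the 17 all H3CIT+dsDNA libraries lay above all controls and in 2 below, against 10.7% and 8.43% of all genes tested. RT1-A1 (log2 fold change 0.23, edgeR adjusted p = 0.223) and RT1-CE10 (0.32, edgeR adjusted p = 0.304) were among the 4, and Tap1 was among the 2. Tap1, the peptide transporter gene beside Psmb9, had 77.6, 77.7 and 77.2 CPM in the H3CIT+dsDNA group against 90.0, 83.5 and 81.4 CPM (log2 fold change -0.13, edgeR adjusted p = 0.205, SE 0.05). Tap2 varied between 69 and 328 counts with no separation of the groups (adjusted p = 0.682). B2m, the invariant chain of class I molecules, was at a log2 fold change of 0.03 (adjusted p = 0.818) and Tapbp, the gene of tapasin, at -0.02 (edgeR adjusted p = 0.877). Reads of the class I genes themselves can be shared between near-identical copies.

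The COP9 signalosome, a complex related to the lid of the cap, removes NEDD8 from ubiquitin ligases. It held 1 call among its 10 genes (10%), where 2.2% of all genes tested were called. Cops5, its catalytic subunit, had 51.1, 55.4 and 52.3 CPM in the H3CIT+dsDNA libraries against 18.0, 17.8 and 17.3 CPM. Cops5 rose by 1.58 on the log2 scale (edgeR adjusted p = 1.84e-09, SE 0.06), while the other 9 genes lay between -0.11 and 0.11. Gps1 (-0.11) and Cops4 (-0.08) lay below every control, 2 of the 10 genes, against 8.43% of all genes tested. Of the 8 smooth muscle markers 5 (62.5%) were called, against 2.2% of all genes tested. Cnn1 (-1.57), Acta2 (-0.69), Tagln (-0.40) and Smtn (-0.21) fell and Myocd (1.09) rose, with adjusted p-values from 9.54e-08 to 0.0386 in edgeR. The call of Smtn was lost in 9 of 15 alternatives, among them DESeq2 (adjusted p = 0.0734), limma-voom (0.0583) and library size alone (0.0546), with adjusted p-values up to 0.202. Myh11 (0.06), Des (-0.06) and Lmod1 (-0.06) were not called.

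**Figure D5:**
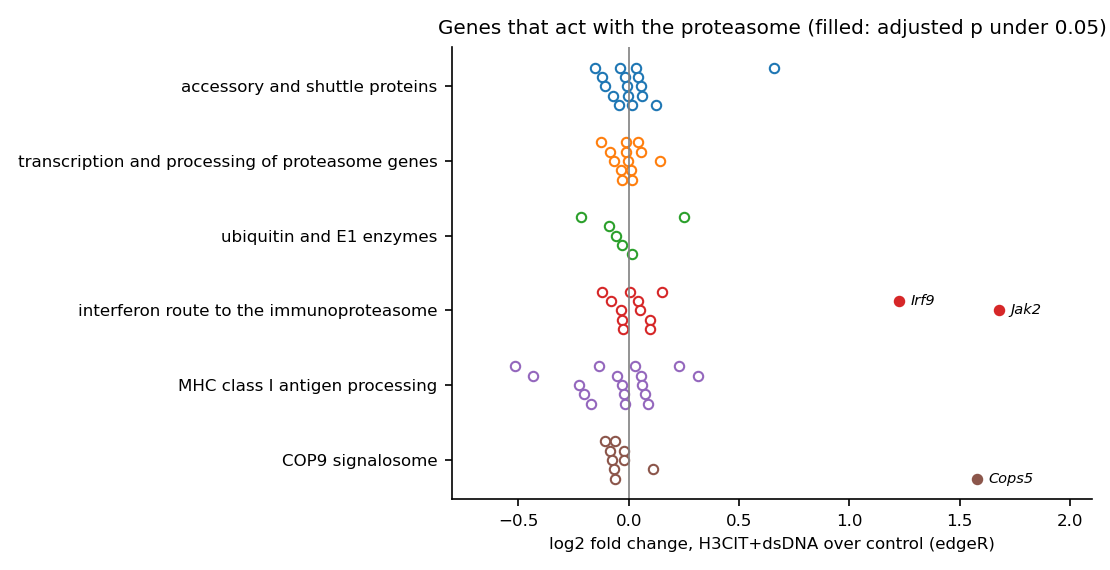
Log2 fold change from edgeR, H3CIT+dsDNA over control, of every tested gene of 6 lists that act with the proteasome (1 point per gene, spread vertically for legibility). Filled and labelled points have an adjusted p-value under 0.05, and these are Irf9, Jak2 and Cops5.

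GRCr8 lists 48 pseudogenes whose symbols begin like those of the members but are not in the count table, and 19 members have such a copy or a related gene, among them Psmb6, Psmb7, Psme1, Psme2, Psme3 and Psmd12. The similarity of their sequences was not measured, and whether reads were shared with them was not tested. Psmb5, Psmb8, Psmb9, Psmb10 and Psme4 have no such named copy.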

How the data were processed

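RNA was extracted from RASMCs of 3 H3CIT+dsDNA and 3 control cultures, and stranded mRNA libraries were sequenced. Reads were aligned by the authors with TopHat2 2.1.1 to the Rnor6.0 genome, and the deposited values are raw HTSeq counts, not normalized. The submitters' processing notes also name Cufflinks 2.2.1 and Cuffdiff. The strand setting is not given in the sources used here. Samples were grouped by their titles, which match the columns.

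After filterByExpr and TMM scaling, groups were compared by the two-sided quasi-likelihood test of edgeR 4.0.16 (R 4.3.3), with Benjamini-Hochberg adjustment over 12591 genes and a call at an adjusted p-value under 0.05. Confidence intervals are coefficient ± t quantile × standard error. Intervals and floors for low counts cover counting error only where no replicate spread enters. The alternatives were 3 other scalings, DESeq2 1.42.0, limma-voom (limma 3.58.1), 2 other filters, robust dispersion, the replicate number as a block, and leaving out each of the 6 libraries. The members and lists were chosen with earlier results of these data known. Named were the catalytic subunits, activators, called members, extremes of each role and set genes of the other lists. Other names were read from the values. Coordinates and promoters are those of GRCr8, on which all 49 members have an entry. The values of 2 genes of the other lists are not reported here.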

Additional observations from a re-analysis of the deposited data

How the results depend on the processing

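Of 615 values of 41 named genes under 15 alternatives, 600 kept their side of the threshold and 15 were no longer past it, all 15 in Psme4 or Smtn, and none that was called changed sign. A further 23 values of genes without a call changed sign around 0. The member called, Psme4, was the only one in every alternative that gave a call, and the number of members called was 0 with upper-quartile scaling and between 0 and 1, all higher, with each library left out. Psme4 had an adjusted p of 0.0599 with upper-quartile scaling, and of 0.118, 0.0871 and 0.141 without H3CIT+dsDNA replicates 1, 2 and 3 and 0.136 and 0.130 without control replicates 1 and 2, from edgeR; over all alternatives the range was 0.00345 to 0.141. No member was called lower in any alternative. The median of the members was -0.0287 with library size alone and between -0.0619 and -0.0306 on leaving out single libraries. Members lower at an unadjusted p-value under 0.05, a count examined after the data had been seen, numbered 4 with library size alone. Of all genes tested 2.95% then were. With each library left out these members numbered 3 to 13, against 3.38% to 6.26% of all genes. Members below every control numbered from 10 with library size alone to 17 with upper-quartile scaling, against 5.72% and 11.4% of all genes. All genes called numbered 277, and 164 to 357 with each library left out. The differences between the groups in the log2 ratios Psmb9/Psmb6 and Psmb10/Psmb7 took values of -0.09 to 0.15 and -0.14 to 0.02 on leaving out single libraries, and Psmb8/Psmb5 from 0.25 to 1.42; without a pseudocount Psmb8/Psmb5 has no value. The causes were not tested.

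With a replicate block 212 genes and 1 member were called, and the block changed no call of a member. Libraries with the same number share only that number: their departures from their group means correlated over genes at -0.0458, 0.00452 and 0.0355. Psmb8 and Psmb11, at no more than 2 counts in any library, could not be tested, and the cause of their low counts was not tested.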
